A study of Mus musculus with 6 samples.

Results

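Interferons signal through a short chain of proteins, and the genes analysed here encode that chain: the type I receptor chains Ifnar1 and Ifnar2, the type II receptor chains Ifngr1 and Ifngr2, the kinases Jak1, Jak2 and Tyk2, the transcription factor Stat2, and the inhibitor Socs1. These 9 genes were taken by name from a table of 24970 rows, 22036 of them Ensembl mouse genes. All 9 were found, and 8 of the 9 passed a filter that asked for an average of 1 FPKM or more across the 6 libraries. Socs1 did not pass it. FPKM is the number of fragments scaled to the length of the gene and to the depth of the library, so levels of different genes can be set side by side.

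A type I interferon such as interferon beta brings IFNAR1, bound to TYK2, together with IFNAR2, bound to JAK1. Interferon gamma does the same with IFNGR1, bound to JAK1, and IFNGR2, bound to JAK2. The kinases phosphorylate STAT proteins, and STAT2 with IRF9 forms part of the complex ISGF3, which binds the interferon-stimulated response element (ISRE) of antiviral genes, while STAT dimers bind the gamma-activated site (GAS). SOCS1 is made in response and inhibits the kinases.

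RNA came from primary smooth muscle cells of the mouse vessel wall, where they contract to set vessel width, isolated with collagenase from C57BL/6 male mice. The 3 siPfkfb3 libraries were from cells transfected with 20 nM of siRNA against Pfkfb3, a glycolytic regulator, and the 3 siScrambled libraries from cells given the same amount of a scrambled siRNA. Both groups were grown in α-MEM with serum, received Lipofectamine RNAiMAX and were labelled 48 h, and no interferon is named in the labels for either group. The genotype labels name PFKFB3, PFKFB4 and PFKFB5 knockdown for siPfkfb3 replicates 1, 2 and 3, and wild type for siScrambled; the titles, which name siPfkfb3 for all 3, were followed. Nothing in the labels ties the libraries to separate animals or cultures, so each p-value measures only the spread between these libraries, which may be technical.

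Pfkfb3 was at 1.92, 1.65 and 1.77 FPKM in siPfkfb3 replicates 1, 2 and 3, against 4.03, 4.02 and 3.86 FPKM in siScrambled replicates 1, 2 and 3. The groups did not overlap, and the fold change was -0.84 on the log2 scale (limma adjusted p = 2.66e-05). FPKM sums were 348630.3 to 359741.2 per library, and the number of fragments behind them is unknown. All 8 smooth muscle markers passed the filter, and they summed to 2468.9 to 2540.2 FPKM in siPfkfb3 and 2129.2 to 2227.6 FPKM in siScrambled. Of these, Acta2 (0.34 on the log2 scale), which makes up most of the sum, and Cnn1 (0.20) were called higher. None was called lower, but the other 6 had changes of -0.29 to -0.02. The median change of the 8 was -0.08. Of 14 leukocyte and macrophage markers, 6 were listed at 0 in all 6 libraries, and the summed level was 16.0 to 16.7 FPKM in siPfkfb3 and 15.3 to 15.5 FPKM in siScrambled. Most of that sum was Lyz2, and none of the 3 tested markers of the list was called. The 7 endothelial markers summed to 14.1 to 14.8 FPKM in siPfkfb3 and 10.0 to 10.6 FPKM in siScrambled. Nearly all of it was Erg, an endothelial transcription factor, which was called higher (0.54, limma adjusted p = 3.27e-05). The other 6 were under the filter. Among them Tek went the other way, at 0.431, 0.567 and 0.36 FPKM in siPfkfb3 against 0.974, 0.859 and 0.968 FPKM in siScrambled. The groups of Tek did not overlap, and those of the remaining markers under the filter did. The 6 fibroblast markers summed to 739.0 to 769.6 FPKM in siPfkfb3 and 827.8 to 854.4 FPKM in siScrambled. Of the 6, 3 were called lower, with Dpt changing by -0.88 (limma adjusted p = 3.88e-06). The 1 called higher, Pdgfra (0.14), lost its call without any single library other than siScrambled replicate 2. Over all tested genes 15.8% were called higher and 20.5% lower. The part of these markers in the results was not tested. In bulk RNA, fewer cells of a type and less RNA per cell cannot be told apart.

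Of the 8 tested genes, Stat2 changed most and the receptor chains and kinases moved little. Ifnar1, Ifngr2 and Stat2 were higher in siPfkfb3 cells, Ifngr1 and Jak1 were lower, and Ifnar2, Jak2 and Tyk2 did not pass the test. A call here is an adjusted p under 0.05 in limma, on log2(FPKM + 1), adjusted over all 11240 tested genes. By that rule 36.3% of all tested genes were called, 15.8% as higher and 20.5% as lower. Both directions among the 8 genes stand against that broad background, and the share called among so few genes was not tested. The median change of the 8 was 0.05 on the log2 scale, beside -0.02 over all tested genes, and their median absolute change was 0.17, beside 0.14 over all. For 6 of the 8 the groups were fully separate, beside 49.5% of all tested genes. The number of higher members fell to 1, Stat2, without siPfkfb3 replicate 1, siScrambled replicate 1 or siScrambled replicate 3. With siPfkfb3 replicate 1 alone set against siScrambled, a comparison chosen after the values were seen that leaves out the libraries labelled PFKFB4 and PFKFB5 knockdown and assumes that the lone library varies like the others, Stat2 (0.68) and Ifngr1 (-0.26) passed the test (limma adjusted p of 0.0029 and 0.0476) and Ifnar1, Ifngr2 and Jak1 did not.

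**Figure D1:**
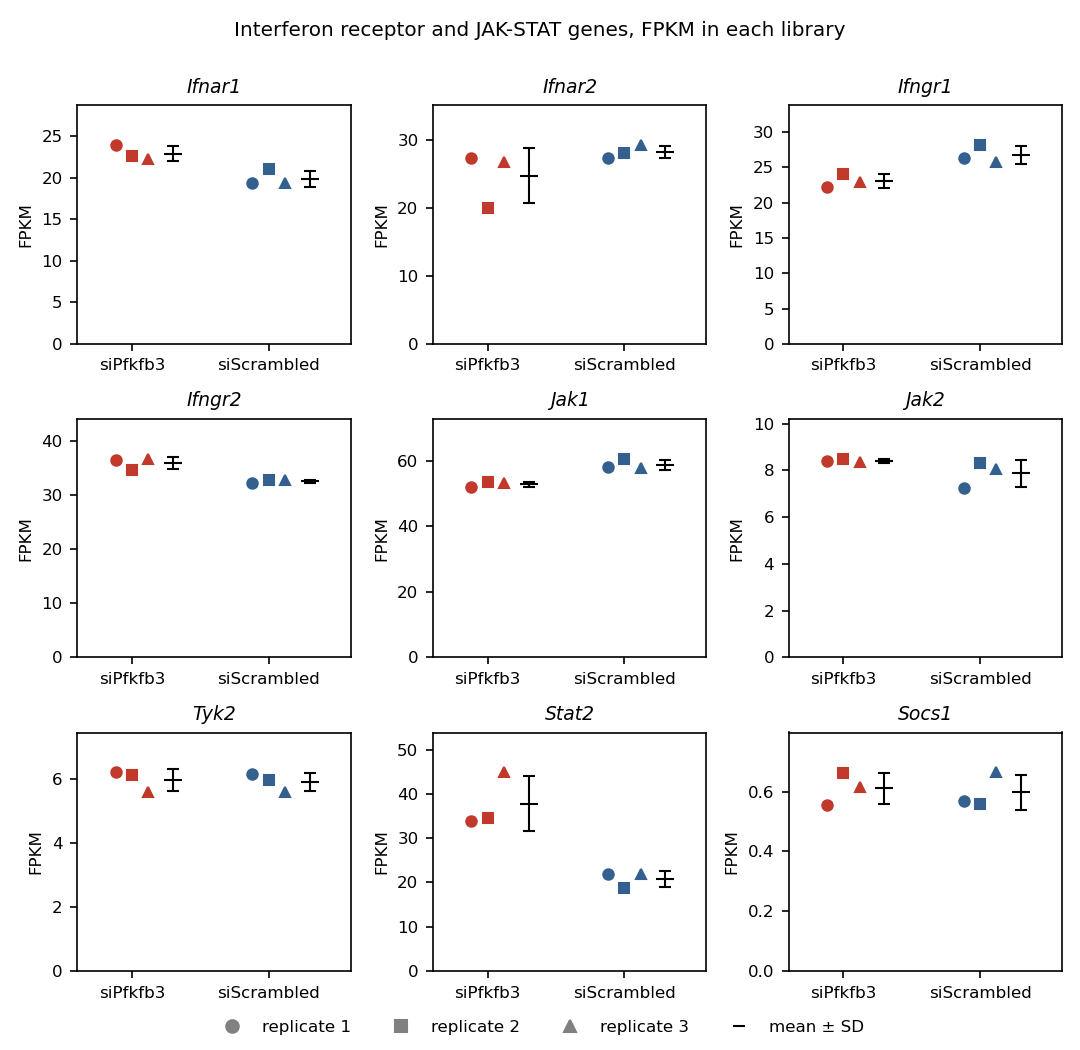
FPKM of each of the 9 genes in each library, siPfkfb3 at the left and siScrambled at the right of each panel, with a point per library and the mean ± SD beside them. The siPfkfb3 points of Stat2 lie at 33.9 to 44.9 FPKM, all above the siScrambled points at 18.8 to 22.0 FPKM, while the points of Tyk2 and Socs1 overlap between the groups.

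The ligands themselves were barely seen. Of 15 interferon genes with a row, 13 were listed at 0 in all 6 libraries. Ifnb1, which encodes interferon beta, was listed at 0.0563 FPKM in siPfkfb3 replicate 2 and at 0 in the other 5 libraries. Ifnz, a type I interferon gene, was at 0.073, 0.097 and 0.118 FPKM in siPfkfb3 and at 0.0952, 0.0257 and 0.0743 FPKM in siScrambled, with overlapping groups. A value of exactly 0 may stand for an estimate that failed, so it says nothing of absence, and none of the 15 genes reached the filter for testing.

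Of the type I receptor chains, Ifnar1 rose and Ifnar2 did not pass the test. Ifnar1 encodes the chain that binds TYK2. Ifnar1 (ENSMUSG00000022967, chr16:91485238-91507441 on the plus strand of GRCm38, 11 exons in its longest transcript) had 23.9, 22.6 and 22.2 FPKM in siPfkfb3 replicates 1, 2 and 3, against 19.3, 21.0 and 19.3 FPKM in siScrambled replicates 1, 2 and 3. All siPfkfb3 libraries were above all siScrambled libraries. The means were 22.9 ± 0.89 FPKM in siPfkfb3 and 19.8 ± 1.01 FPKM in siScrambled (SD, n = 3 each), a fold change of 0.20 ± 0.05 (SE) on the log2(FPKM + 1) scale with a limma adjusted p of 0.0142. That call was lost without siPfkfb3 replicate 1, siScrambled replicate 1 or siScrambled replicate 3, at limma adjusted p of 0.0537, 0.051 and 0.055.

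Ifnar2 (ENSMUSG00000022971, chr16:91372783-91405589, plus strand, 9 exons), the chain that binds JAK1, had 27.4, 20.1 and 26.8 FPKM in siPfkfb3, against 27.4, 28.2 and 29.3 FPKM in siScrambled. siPfkfb3 replicate 2 stood below the other 5 libraries, and the groups overlapped. The means were 24.8 ± 4.08 FPKM in siPfkfb3 and 28.3 ± 0.963 FPKM in siScrambled, and the fold change of -0.20, with a 95% interval of -0.46 to 0.07, did not pass the test (limma adjusted p = 0.213). Without siPfkfb3 replicate 2 it was -0.06. Exons of Ifnar2 overlap those of a read-through gene on the same strand, Gm21970, which was listed at 0 in every library.

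Of the interferon gamma receptor chains, Ifngr1 fell and Ifngr2 rose. Ifngr1 (ENSMUSG00000020009, chr10:19591949-19610229, plus strand, 7 exons), the chain that binds the ligand and JAK1, had 22.2, 24.1 and 22.9 FPKM in siPfkfb3, against 26.3, 28.1 and 25.7 FPKM in siScrambled. Every siPfkfb3 library was below every siScrambled library. The means were 23.1 ± 0.963 FPKM in siPfkfb3 and 26.7 ± 1.27 FPKM in siScrambled, and Ifngr1 fell by 0.20 ± 0.05 on the log2 scale (limma adjusted p = 0.0109), which put it at 86.3% of its siScrambled level.

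Ifngr2 (ENSMUSG00000022965, chr16:91547072-91565623, plus strand, 7 exons), the signalling chain that binds JAK2, had 36.4, 34.7 and 36.7 FPKM in siPfkfb3, against 32.2, 32.7 and 32.7 FPKM in siScrambled. The groups did not overlap, siPfkfb3 being higher. The means were 36.0 ± 1.07 FPKM in siPfkfb3 and 32.5 ± 0.271 FPKM in siScrambled, and the rise of 0.14 ± 0.04 on the log2 scale passed the test (limma adjusted p = 0.0199). It no longer passed without siPfkfb3 replicate 1 or 3 or siScrambled replicate 1 or 3, at limma adjusted p of 0.0514 to 0.0767. The 4 receptor chains together summed to 109.9, 101.5 and 108.7 FPKM in siPfkfb3 and 105.2, 110.1 and 107.0 FPKM in siScrambled, ranges that overlap.

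Ifnar2, Ifnar1 and Ifngr2 lie in a row on chromosome 16, with Il10rb, a chain of the interferon lambda and interleukin-10 receptors, between Ifnar2 and Ifnar1; the row spans 192.8 kb. Il10rb had 13.8, 13.6 and 14.2 FPKM in siPfkfb3, against 14.4, 15.4 and 17.1 FPKM in siScrambled. The groups did not overlap, yet the change of -0.16 missed the threshold (limma adjusted p = 0.0771), which it passed without siScrambled replicate 1 (0.0292). A window of 200 kb on either side of the row, chosen after the values were seen, held 15 genes with values. Of these, 10 were tested, 3 were higher and 1 was lower, beside 36.3% called over all tested genes. The share called in the window was not tested. Beside Ifnar1 and Ifngr2 the third higher gene was Itsn1, which encodes an endocytic scaffold, at 0.51, and the lower one was Tmem50b, which encodes a membrane protein, at -0.26 on the log2 scale.

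**Figure D2:**
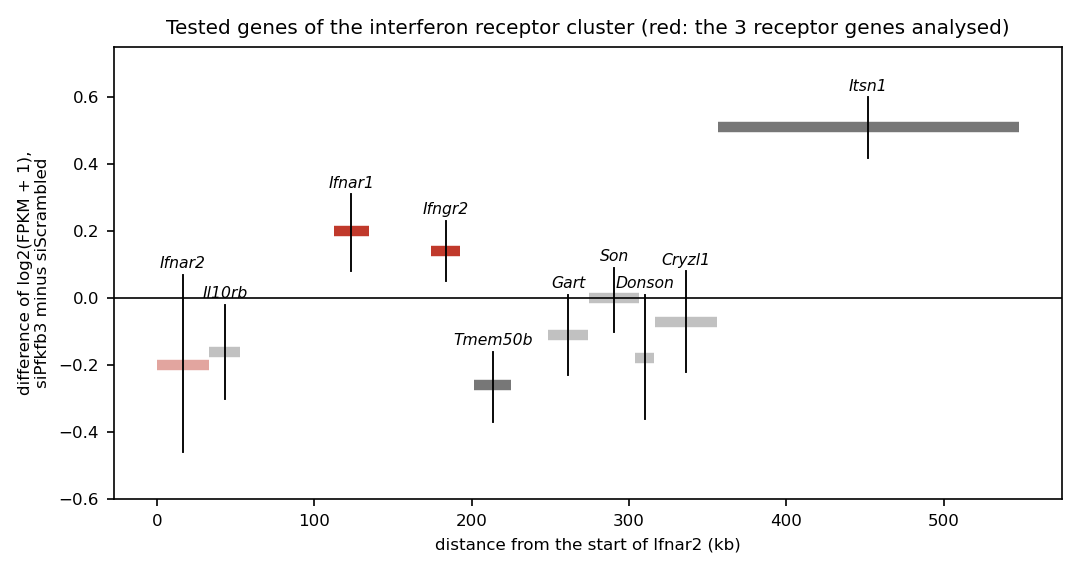
Change of each tested gene of the chromosome 16 window (difference of log2(FPKM + 1), siPfkfb3 minus siScrambled, with 95% interval) against its distance in kb from the start of Ifnar2; bar length is gene length, red marks the receptor genes analysed and paler bars did not pass the test. Ifnar1 at 0.20 and Ifngr2 at 0.14 lie above 0, and Ifnar2 and Il10rb lie below it without passing the test.

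Of the kinases, Jak1 alone passed the test, and it was lower. Jak1 (ENSMUSG00000028530, chr4:101152367-101265282, minus strand, 25 exons), which serves both receptor types, had 52.1, 53.6 and 53.2 FPKM in siPfkfb3, against 58.1, 60.7 and 57.9 FPKM in siScrambled. Every siPfkfb3 library was below every siScrambled library, and Jak1 had the highest level of the 9 genes in both groups. The means were 53.0 ± 0.745 FPKM in siPfkfb3 and 58.9 ± 1.57 FPKM in siScrambled, and Jak1 fell by 0.15 ± 0.04 on the log2 scale (limma adjusted p = 0.00887). Its exons overlap those of Raver2 on the other strand, which reached at most 0.463 FPKM; whether counting used strand is not given in the sources used here.

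Jak2 (ENSMUSG00000024789, chr19:29251828-29313080, plus strand), which serves IFNGR2, had 8.40, 8.50 and 8.34 FPKM in siPfkfb3, against 7.24, 8.32 and 8.05 FPKM in siScrambled. The groups did not overlap by a narrow margin, siScrambled replicate 1 being the lowest library. The change of 0.09, with a 95% interval of -0.05 to 0.23, did not pass the test (limma adjusted p = 0.298). Tyk2 (ENSMUSG00000032175, chr9:21104068-21131243, minus strand), which serves IFNAR1, had 6.22, 6.12 and 5.59 FPKM in siPfkfb3, against 6.16, 5.99 and 5.60 FPKM in siScrambled. The values of Tyk2 interleaved between the groups, and its exons overlap those of 1700084C06Rik on the other strand, which was not analysed here. Its change was 0.01, with a 95% interval of -0.13 to 0.16 (limma adjusted p = 0.903). Summed, the 3 kinases stood at 66.8, 68.2 and 67.1 FPKM in siPfkfb3 and at 71.5, 75.0 and 71.5 FPKM in siScrambled, a gap that Jak1 carried.

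Stat2 (ENSMUSG00000040033, chr10:128270559-128292849, plus strand, 24 exons) had 33.9, 34.5 and 44.9 FPKM in siPfkfb3 replicates 1, 2 and 3, against 21.8, 18.8 and 22.0 FPKM in siScrambled replicates 1, 2 and 3. All siPfkfb3 libraries were above all siScrambled libraries, with siPfkfb3 replicate 3 the highest and siScrambled replicate 2 the lowest. The means were 37.8 ± 6.17 FPKM in siPfkfb3 and 20.8 ± 1.77 FPKM in siScrambled, so that siPfkfb3 stood at 181.2% of siScrambled. The fold change was 0.82 ± 0.12 on the log2 scale, with a 95% interval of 0.54 to 1.10 (limma adjusted p = 0.00168). Among the 11240 tested genes, 198, or 1.76%, had a larger absolute change. An exact two-sided permutation test of Stat2 over the libraries gave p = 0.1, the smallest that 3 against 3 allows, and the same p came out for each of the other members whose groups did not overlap.

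The 300 bases around the start of each gene, 250 before it and 50 after it, were read from the RefSeq promoter table of GRCm38.p6, which held all 9 genes, and searched on both strands for an ISRE core, GAAA and again GAAA with 2 bases of any kind between them, and a GAS core, TTC and GAA with 3 bases of any kind between them. The ISRE core was found in 2 of the 9, Stat2 and Socs1, and the GAS core in 2 others, Ifnar1 and Ifnar2; the remaining 5 held neither. Over all 32851 promoters of that table, 3.44% held the ISRE core and 8.3% the GAS core. The promoters of Stat2 (chr10:128270248-128270547, plus strand), of Socs1 (chr16:10785487-10785786, minus strand) and of Ifnar1 (chr16:91484965-91485264, plus strand) are shown because they hold a motif of the pathway's own factors and their genes differ in level and in response. Capitals mark the motif, and each strand runs 5′ to 3′ toward the gene.
Stat2: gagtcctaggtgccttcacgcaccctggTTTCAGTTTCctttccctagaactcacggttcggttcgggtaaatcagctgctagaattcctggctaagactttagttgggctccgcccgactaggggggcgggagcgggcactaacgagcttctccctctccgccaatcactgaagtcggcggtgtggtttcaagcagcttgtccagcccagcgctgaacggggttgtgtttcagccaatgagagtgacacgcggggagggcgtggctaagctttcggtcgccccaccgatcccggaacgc
Socs1: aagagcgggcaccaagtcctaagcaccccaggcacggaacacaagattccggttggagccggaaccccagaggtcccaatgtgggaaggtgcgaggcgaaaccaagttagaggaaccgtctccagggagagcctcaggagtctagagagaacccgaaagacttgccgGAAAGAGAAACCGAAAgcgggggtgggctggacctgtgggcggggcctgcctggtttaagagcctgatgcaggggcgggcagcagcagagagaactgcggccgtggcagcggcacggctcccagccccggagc
Ifnar1: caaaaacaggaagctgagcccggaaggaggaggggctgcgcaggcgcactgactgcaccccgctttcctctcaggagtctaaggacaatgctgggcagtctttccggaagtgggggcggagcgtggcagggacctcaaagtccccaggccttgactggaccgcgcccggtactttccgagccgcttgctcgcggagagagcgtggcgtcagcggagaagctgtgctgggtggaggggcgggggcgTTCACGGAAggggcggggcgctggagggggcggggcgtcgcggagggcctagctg
In Stat2 the capitals, TTTCAGTTTC, read the ISRE core on the opposite strand and begin 222 bases before the start. In Socs1 a pair of overlapping cores, GAAAGAGAAA and GAAACCGAAA, begin 83 and 77 bases before it, and in Ifnar1 the GAS core TTCACGGAA begins 5 bases before it. The promoter entries of Irf9, which encodes the partner of STAT2 and changed by 0.80 on the log2 scale, held neither core. A match describes the letters only, and binding was not measured. Of the type I interferon targets with a promoter entry, 10 of 21 held the ISRE core and 3 held the GAS core, and of the interferon gamma targets 10 of 18 held the ISRE core and 8 the GAS core.

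Socs1 (ENSMUSG00000038037, chr16:10782240-10785536, minus strand, 2 exons) had 0.557, 0.662 and 0.614 FPKM in siPfkfb3, against 0.568, 0.560 and 0.665 FPKM in siScrambled. The values of Socs1 interleaved, and its means were 0.611 ± 0.0526 FPKM in siPfkfb3 and 0.598 ± 0.0587 FPKM in siScrambled. An exact two-sided permutation test gave p = 1.0, and in the fit with no filter on low values the limma adjusted p was 0.924. At this level the log2(FPKM + 1) scale understates a change.

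Ordered by level, the 9 genes ran in siPfkfb3 from Jak1 through Stat2, Ifngr2, Ifnar2, Ifngr1, Ifnar1, Jak2 and Tyk2 to Socs1. In siScrambled the order was Jak1, Ifngr2, Ifnar2, Ifngr1, Stat2, Ifnar1, Jak2, Tyk2 and Socs1. The main difference between the orders was the place of Stat2, at rank 2 in siPfkfb3 and rank 5 in siScrambled. Neighbours whose ranges overlapped were Stat2 and Ifngr2 in siPfkfb3, with Ifnar2, Ifngr1 and Ifnar1 also overlapping there, and Ifnar2 and Ifngr1, and Stat2 and Ifnar1, in siScrambled.

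Ratios of partners within a library leave out most of any difference in scaling between libraries. For Ifnar1 over Ifnar2 the ratio was 0.871, 1.13 and 0.827 in siPfkfb3, against 0.703, 0.744 and 0.656 in siScrambled. The balance of the type I chains thus lay further toward Ifnar1 in every siPfkfb3 library. For Ifngr1 over Ifngr2 it was 0.609, 0.693 and 0.625 in siPfkfb3, against 0.816, 0.86 and 0.788 in siScrambled, so that the ligand-binding chain had the smaller share in siPfkfb3. For Jak1 over Jak2 the ratio was 6.21, 6.3 and 6.38 in siPfkfb3, against 8.02, 7.3 and 7.19 in siScrambled. For Stat2 over Jak1 it was 0.651, 0.644 and 0.844 in siPfkfb3, against 0.374, 0.31 and 0.38 in siScrambled. None of these 4 ratios overlapped between the groups. For Jak1 over Tyk2 the ratio was 8.38, 8.76 and 9.52 in siPfkfb3, against 9.44, 10.1 and 10.3 in siScrambled, overlapping as a plain ratio but not on the log2(FPKM + 1) scale of the test. For Socs1 over Stat2 it was 0.0164, 0.0192 and 0.0137 in siPfkfb3, against 0.0261, 0.0298 and 0.0303 in siScrambled. Each of the 6 ratios gave an exact two-sided permutation p of 0.1, and 0.1 after adjustment over the 6, the smallest the design allows.

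Irf9, the partner of Stat2 in ISGF3, also rose. This DNA-binding subunit had 24.0, 26.5 and 30.2 FPKM in siPfkfb3, against 16.0, 13.7 and 15.4 FPKM in siScrambled. The groups did not overlap, and the fold change of Irf9 was 0.80 (limma adjusted p = 0.000142). Irf2, which binds the same kind of element, had 10.9, 12.1 and 10.5 FPKM in siPfkfb3, against 7.65, 8.09 and 7.94 FPKM in siScrambled, a rise of 0.45 (limma adjusted p = 0.000422). Irf1, a target of interferon gamma, had overlapping groups at 8.57, 10.2 and 11.1 FPKM in siPfkfb3 and 8.8, 8.28 and 9.77 FPKM in siScrambled, and its change of 0.13 did not pass the test. Of 5 tested other JAK and STAT genes, 1 was higher and none lower: Stat5b, which carries growth hormone and prolactin signals, at 11.2, 11.5 and 10.5 FPKM in siPfkfb3 and 8.72, 8.96 and 8.19 FPKM in siScrambled (0.32; limma adjusted p = 0.00185). Stat3, Stat5a, Stat6 and Jak3 did not pass the test. Over all tested genes 36.3% were called, and the share among these 5 was not tested.

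**Figure D3:**
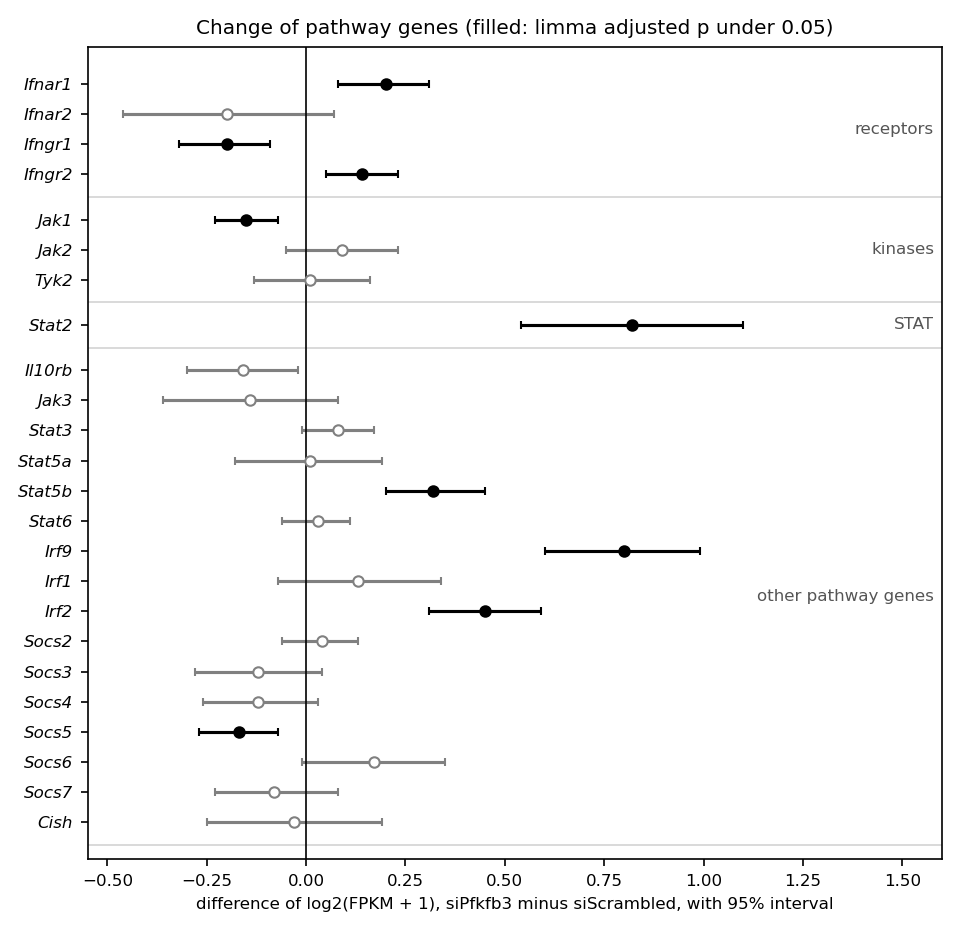
Difference of log2(FPKM + 1), siPfkfb3 minus siScrambled, with 95% interval, for the 8 tested genes of the chain and for the tested genes of the type III receptor, other JAK and STAT, IRF partner and SOCS lists; filled points passed the test. Stat2 at 0.82 and Irf9 at 0.80 lie furthest from 0, and the receptor and kinase points lie between -0.20 and 0.20.

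Of the 7 tested SOCS family genes 1 was lower and none higher, beside 36.3% called over all tested genes. Their median change was -0.08, and the share called was not tested. The lower one was Socs5, at 19.2, 20.0 and 19.3 FPKM in siPfkfb3 and 22.1, 22.6 and 21.6 FPKM in siScrambled, a change of -0.17 (limma adjusted p = 0.0127), which did not pass with siPfkfb3 replicate 1 alone against siScrambled (limma adjusted p = 0.0971). None of the 4 PIAS genes, inhibitors of STAT binding and SUMO ligases, passed the test. Pias3 and Pias4, the highest of them, changed by -0.01 and 0.01.

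Of 12 tested genes listed as phosphatases and other inhibitors, 5 were higher and 3 lower, beside 36.3% called over all tested genes. Their median change was 0.01, and the share called among these 12 was not tested. Not all of them are specific inhibitors. The list also holds the adaptor Sh2b1, which was among the 5 (0.30), and the ligase subunits Cul5, Elob and Eloc. Usp18, which binds IFNAR2 and holds back type I signalling, had 27.7, 26.5 and 35.7 FPKM in siPfkfb3, against 12.6, 6.39 and 10.6 FPKM in siScrambled. The groups were far apart, with a rise of 1.55 ± 0.27 on the log2 scale (limma adjusted p = 0.0108); Usp18 is itself an interferon target. Its call was lost with siPfkfb3 replicate 1 alone against siScrambled (limma adjusted p = 0.167). Ptpn11, the phosphatase SHP2, was higher by 0.35, and Sh2b3, the adaptor LNK that restrains JAK2, was lower by 0.39. Rnf7, the RING subunit of the cullin ligases that SOCS proteins recruit, had 14.4, 16.8 and 13.7 FPKM in siPfkfb3, against 39.0, 38.8 and 37.9 FPKM in siScrambled, and fell by 1.31 on the log2 scale (limma adjusted p = 1.3e-06). That was the furthest fall among the 12.

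Of 10 tested other receptors that use JAK1, JAK2 or TYK2, 2 were higher and 2 lower, beside 36.3% called over all tested genes. The share called among these 10 was not tested. Ghr, the growth hormone receptor, had 137.3, 128.6 and 133.6 FPKM in siPfkfb3, against 104.8, 114.8 and 108.4 FPKM in siScrambled (0.28; limma adjusted p = 0.000623). Il11ra1, the interleukin-11 receptor chain, had 34.5, 36.0 and 35.7 FPKM in siPfkfb3, against 48.0, 47.3 and 44.5 FPKM in siScrambled (-0.39; limma adjusted p = 0.000101). Neither pair of groups overlapped. Lifr, the leukaemia inhibitory factor receptor, changed by 0.18, a call lost without any single library other than siScrambled replicate 2 (limma adjusted p of 0.0675 to 0.143). Il27ra, the interleukin-27 receptor chain, changed by -0.32. That call was lost without siPfkfb3 replicate 1 or 2 or siScrambled replicate 1 or 2 (limma adjusted p of 0.0758 to 0.133). Il27ra lay at the filter and passed only through siScrambled, with means of 0.783 FPKM in siPfkfb3 and 1.22 FPKM in siScrambled.

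Targets of the pathway had larger changes than the receptors and kinases. Of 28 tested targets of type I interferon, a list that includes Usp18 and Irf9, 27 were higher in siPfkfb3 and none lower. Their median change was 1.04. Over all tested genes 15.8% were called higher and 20.5% lower, and the shares called in the target lists were not tested. Of the 27, Oasl1 and Ddx60 averaged 0.579 and 0.983 FPKM in siScrambled and passed the filter only through siPfkfb3. Ifi44, an interferon-induced protein, changed by 2.63, Ifit3, an antiviral effector, by 1.94, Oasl2, an oligoadenylate synthetase-like protein, by 1.64, and Irf7, the factor that amplifies interferon production, by 1.61. Of 17 tested targets of interferon gamma, 14 were higher and none lower, with a median of 0.82. Of the 14, Gbp5 and Cd274 averaged 0.649 and 0.479 FPKM in siScrambled and likewise passed the filter only through siPfkfb3. So did Cxcl10, which was among the 17 but not called, with means of 0.894 FPKM in siScrambled and 2.59 FPKM in siPfkfb3. The medians of both target lists include such genes. With siPfkfb3 replicate 1 alone against siScrambled, 18 of the type I and 11 of the gamma targets were higher and none lower. Gbp3, an interferon-inducible GTPase, had 28.7, 22.1 and 39.4 FPKM in siPfkfb3, against 11.3, 8.07 and 10.0 FPKM in siScrambled. The GTPases Iigp1 and Tgtp1 each changed by 1.09, and Tap1, the peptide transporter of antigen presentation, by 1.06. The call of Iigp1 was lost without siScrambled replicate 2 or 3, at limma adjusted p of 0.0566 and 0.064. With siPfkfb3 replicate 1 alone against siScrambled, Ifit3 and Oasl2 did not pass the test, at limma adjusted p of 0.151 and 0.0714. Many genes of this second list also respond to type I interferon. Both lists were drawn up with earlier results of these data known, so neither the direction nor the size of their changes is independent evidence. Among the leukocyte and macrophage markers, Lyz2 had 13.5, 13.7 and 13.1 FPKM in siPfkfb3, against 12.3, 12.2 and 12.1 FPKM in siScrambled, and was not called (0.13; limma adjusted p = 0.0563). Cd68 had 1.29, 0.721 and 0.438 FPKM in siPfkfb3, against 1.4, 1.08 and 1.15 FPKM in siScrambled, with overlapping groups and a change of -0.31 that did not pass the test. The part of these markers in the changes was not tested.

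Averaged over 27 type I targets, Irf9 left out, log2(FPKM + 1) was 4.07, 4.05 and 4.45 in siPfkfb3 replicates 1, 2 and 3. In siScrambled replicates 1, 2 and 3 it was 3.24, 2.82 and 3.02. Oasl1 and Ddx60, which passed the filter only through siPfkfb3, were part of this average. The library with the highest level, siPfkfb3 replicate 3, and the one with the lowest, siScrambled replicate 2, were also those of Stat2 and Irf9. None of the receptor chains shared both ends of this order. Ifngr2 was also highest in siPfkfb3 replicate 3, at 36.7 FPKM, but lowest in siScrambled replicate 1, at 32.2 FPKM. Ifnar1 was highest in siPfkfb3 replicate 1, Ifnar2 lowest in siPfkfb3 replicate 2 and Ifngr1 highest in siScrambled replicate 2.

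**Figure D4:**
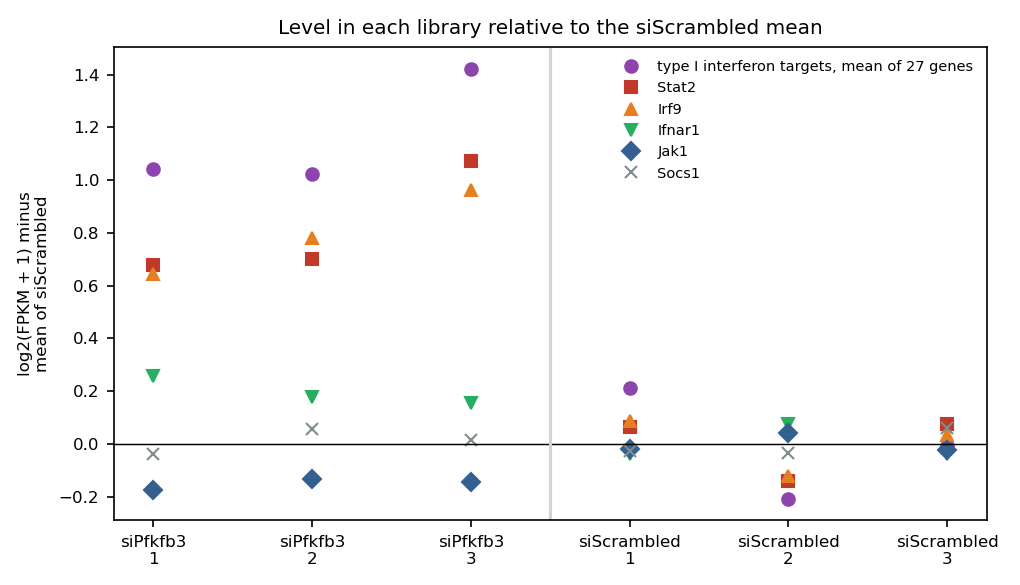
Log2(FPKM + 1) of Stat2, Irf9, Ifnar1, Jak1 and Socs1 and the mean of 27 type I interferon targets in each library minus its siScrambled mean, siPfkfb3 libraries at the left and siScrambled libraries at the right. The target mean and Stat2 are highest in siPfkfb3 replicate 3 and lowest in siScrambled replicate 2.

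Among 10651 tested genes with a symbol, those whose centred log2 values lay nearest to Stat2 over the 6 libraries were Rnf213, Irf9 and Irgm1, at root mean square differences of 0.054, 0.059 and 0.066. Rnf213 encodes a large ubiquitin ligase and Irgm1 an interferon-inducible GTPase, and they changed by 0.84 and 0.90. For Ifngr1, which fell the most of the called members, the nearest were Lipa, the lysosomal acid lipase, at 0.015, and Fgd1, an exchange factor for CDC42, and Fam120c, both at 0.020. Lipa and Fgd1 each changed by -0.22 and passed the test, and Fam120c changed by -0.20 and did not (limma adjusted p = 0.0706).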

How the data were processed

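TRIzol RNA of the 6 samples went into mRNA libraries, per the labels' protocols. The submitters' processing notes name HISAT2 and the build GRCm38 (mm10). How reads were counted, with or without strand, and on which annotation is not given in the sources used here. FPKM values, so named per the file headers, were deposited by the authors in 24970 rows, of which 22036 are Ensembl genes and 2934 are rows named as new genes; 22022 Ensembl IDs had a symbol. Depth is unknown, and a rough estimate from the commonest low value puts the deepest library at 1.24 times the shallowest.

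Genes averaging 1 FPKM or more (11240) were tested on log2(FPKM + 1) with limma 3.58.1 in R 4.3.3 (intensity trend, robust fit, two-sided, Benjamini-Hochberg adjustment over all tested genes, threshold 0.05). A fold change is the siPfkfb3 mean less the siScrambled mean on this scale, and understates low genes; adjusted p-values are from this fit unless another is named. The limma step was tested on simulated data. Single values and ratios were compared with exact permutation tests. Python 3.11.15, numpy 2.4.6, pandas 2.3.3, scipy 1.17.1 and matplotlib 3.10.9 were used.

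The members and lists were chosen with earlier results of these data known. Besides the members, up to 4 called genes of largest absolute change were named per list, or the 2 of highest mean where none was called, and the 3 genes nearest to the most raised and the most lowered member; others are marked or are given for their place in the chain. One further gene of the set is not reported here. Gene positions are from GENCODE M21 and promoters from RefSeq. There were 16 alternatives: pseudocounts, filters, scalings, limma settings, a replicate block, each library left out, and 1 added after the data were seen.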

Additional observations from a re-analysis of the deposited data

How the results depend on the processing

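Of the 5 called members, Stat2 (0.68 to 0.89) and Ifngr1 (-0.26 to -0.17) kept their calls under all 16 alternatives, and Jak1 lost its call only with siPfkfb3 replicate 1 alone against siScrambled (limma adjusted p = 0.077), a comparison added after the data were seen because the genotype labels of the other siPfkfb3 libraries name other genes. There 1 member was higher and 1 lower, 926 and 1210 of all tested genes, 1 of the phosphatases and other inhibitors higher in place of 5, and 0 of the SOCS genes lower in place of 1. Leaving out 1 library gave 1 to 3 members higher, and the weaker calls were those of Ifnar1 and Ifngr2. The change of Tyk2 was -0.02 to 0.05 without 1 library, that of Pias3 -0.04 to 0.05 and that of Pias4 -0.07 to 0.05, so their signs are not settled. Of the other receptors that use these kinases, 1 in place of 2 was higher in 8 and 1 in place of 2 was lower in 9 of the 16 alternatives. Pias3 was at 0.01 after rescaling to TPM, 0.02 after median-of-ratios scaling and 0.01 after quantile normalization. Under each of these scalings 1 leukocyte and macrophage marker in place of 0 was higher, and 1 was lower without siPfkfb3 replicate 1. For smooth muscle markers, 1 in place of 0 was lower with a pseudocount of 0.1, quantile normalization or no trend and no robust fit. The same held without siPfkfb3 replicate 3 or siScrambled replicate 2. With no filter on low values, 1 endothelial marker in place of 0 was lower.

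The replicate numbers did not pair the libraries (correlations of deviations -0.11, 0.06 and 0.05). With the number as a block, 3 members were higher and 2 lower, and 1680 and 2227 of all tested genes; Ifit3 (limma adjusted p = 0.0707), Iigp1 (0.0579), Lifr (0.0694) and Il27ra (0.0693) lost their calls, and 3 smooth muscle markers were lower in place of 0. FPKM without counts gives no counting error, so small differences between libraries cannot be set against sampling noise, and 3 libraries a group are too few to find one that stands apart.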
